A study of Mus musculus with 2 samples.

Results

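The cell cycle genes described here are 42 listed names of genes for DNA replication and mitosis, of which 41 were found in the mouse gene annotation (GENCODE M21, on mm10) among 21938 protein-coding genes. They were taken by name. The list entry Foxm1x had no match and no other gene took its place. For each gene, accessible regions, footprints and stretches of raised nuclease cutting were read within the gene body and 10 kb on each side.

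The data are DNase-seq of left cerebral cortex from 2 female mice of the B6CASTF1/J strain, first-generation hybrids of the B6 and CAST lines, both aged 36 days. DNase-seq cuts nuclei with the enzyme DNase I, and the cut sites mark DNA that is free of packed nucleosomes, chiefly promoters and enhancers. There was 1 library per animal, and the replicate numbers 1 and 2 are those of the labels, which record separate animal numbers and 1 donor entry for both. There was 1 group with no treatment and no second tissue or age, so no difference between conditions exists to be tested, and every value is given for both mice in place of a p-value. A bulk library cannot tell a site open in few cells from a site weakly open in many.

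The members fall into 8 roles, from the loading of replication helicases in G1 to the separation of chromosomes. In dividing cells the early genes are switched on by E2F factors near the start of S phase, and the late genes are switched on in G2 through CCAAT boxes, bound by NF-Y, and through the cell cycle homology region (CHR), bound by the MuvB core together with B-MYB and FOXM1. In cells that have left the cycle, as neurons do, the same MuvB core joins E2F4 and the pocket proteins p130 or p107 in the DREAM complex, which holds these genes down. DNase-seq reads the accessibility of these promoters, and transcripts were not analysed here.

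The promoters themselves show both kinds of element. The sequences below are the 200 bases before the RefSeq transcription start (GRCm38.p6, the mm10 assembly), each written 5′ to 3′ on the strand of its gene. Capitals mark E2F-type letters (the form TTGGCGC, the form TTCCCGC, the form TTGCCGC and the form TTCGCGC), CHR-type letters (the form TTTGAA and the form TTCGAA) and CCAAT, each searched on both strands. Matches can overlap, as where TTGGCGC on one strand meets TTCGCGC on the other, or where an E2F-type match shares letters with CCAAT or its reverse complement ATTGG. The highest peak of a gene, whose height is given further below, can lie outside the printed bases. At E2f8 it does, and the printed bases met a peak with a height of 0.912 in replicate 1 and 0.611 in replicate 2. The first 3 belong to replication and G1/S genes, and at least 1 E2F-type match in each lay in a footprint of both mice: Mcm6 at chr1:128359706-128359905 on the minus strand, Mcm5 at chr8:75109309-75109508 on the plus strand and E2f8 at chr7:48881597-48881796 on the minus strand.
Mcm6: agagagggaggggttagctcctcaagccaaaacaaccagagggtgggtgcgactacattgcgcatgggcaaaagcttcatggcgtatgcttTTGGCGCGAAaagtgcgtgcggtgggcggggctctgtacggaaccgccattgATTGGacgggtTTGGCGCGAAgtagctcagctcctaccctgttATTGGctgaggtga
Mcm5: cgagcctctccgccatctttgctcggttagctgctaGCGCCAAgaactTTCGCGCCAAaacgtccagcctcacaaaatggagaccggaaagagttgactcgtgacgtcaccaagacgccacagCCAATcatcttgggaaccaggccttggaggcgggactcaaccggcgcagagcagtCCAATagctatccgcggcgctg
E2f8: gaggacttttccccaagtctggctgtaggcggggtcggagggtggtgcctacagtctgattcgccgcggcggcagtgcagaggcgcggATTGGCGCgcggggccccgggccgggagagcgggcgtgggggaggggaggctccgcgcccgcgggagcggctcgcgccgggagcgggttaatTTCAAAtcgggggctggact
The next set belongs to G2 and mitosis genes and shows CHR-type and CCAAT letters side by side: Cdk1 at chr10:69352913-69353112 on the minus strand, Top2a at chr11:99024190-99024389 on the minus strand, Ccnb2 at chr9:70421555-70421754 on the minus strand, Kif11 at chr19:37376182-37376381 on the plus strand and Mki67 at chr7:135716380-135716579 on the minus strand.
Cdk1: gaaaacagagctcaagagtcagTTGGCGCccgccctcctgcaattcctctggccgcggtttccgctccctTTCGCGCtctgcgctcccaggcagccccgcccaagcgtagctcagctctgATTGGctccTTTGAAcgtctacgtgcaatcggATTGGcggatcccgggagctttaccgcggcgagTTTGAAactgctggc
Top2a: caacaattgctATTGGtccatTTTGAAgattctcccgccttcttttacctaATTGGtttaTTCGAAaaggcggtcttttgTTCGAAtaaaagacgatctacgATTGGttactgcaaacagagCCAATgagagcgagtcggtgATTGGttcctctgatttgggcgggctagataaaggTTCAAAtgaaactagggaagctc
Ccnb2: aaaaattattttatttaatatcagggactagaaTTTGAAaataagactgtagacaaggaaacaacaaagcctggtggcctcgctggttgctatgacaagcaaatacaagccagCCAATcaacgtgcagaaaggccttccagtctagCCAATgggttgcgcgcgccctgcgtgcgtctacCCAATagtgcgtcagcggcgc
Kif11: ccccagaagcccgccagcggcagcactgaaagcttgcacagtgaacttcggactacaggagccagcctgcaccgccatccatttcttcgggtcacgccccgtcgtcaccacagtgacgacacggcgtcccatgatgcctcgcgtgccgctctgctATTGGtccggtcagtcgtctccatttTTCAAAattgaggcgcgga
Mki67: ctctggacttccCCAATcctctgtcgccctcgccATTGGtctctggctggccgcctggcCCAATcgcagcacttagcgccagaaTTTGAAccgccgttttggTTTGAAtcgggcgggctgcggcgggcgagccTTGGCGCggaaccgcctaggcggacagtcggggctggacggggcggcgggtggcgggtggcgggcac
The last is Tyms at chr5:30073626-30073825 on the minus strand, shown because its promoter peak was the lowest and its 200 bases hold none of these letters.
Tyms: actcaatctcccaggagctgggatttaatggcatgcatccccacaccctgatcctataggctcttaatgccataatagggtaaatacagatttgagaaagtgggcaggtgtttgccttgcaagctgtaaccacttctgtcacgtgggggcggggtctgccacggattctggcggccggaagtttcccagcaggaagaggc
Some matches lay just after the start, and for those that fell in a footprint of both mice the 30 bases around the site are given, with only that class in capitals: CHR-type sites in Plk1 at chr7:122159453-122159482 (plus strand) and Bub1 at chr2:127831828-127831857 (minus strand), and E2F-type sites in Mcm7 at chr5:138171849-138171878 (minus strand) and Mcm3 at chr1:20820276-20820305 (minus strand).
Plk1: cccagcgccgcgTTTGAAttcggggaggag
Bub1: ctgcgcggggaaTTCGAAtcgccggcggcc
Mcm7: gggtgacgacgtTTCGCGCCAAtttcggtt
Mcm3: taaacttccgtgGCGGGAAaacttgggaag

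Across the whole genome the shorter peak list of each library held 69208 peaks in replicate 1 and 69128 in replicate 2, and 48886 merged regions held a peak of both mice. The depth in reads is unknown here. The deposited peak heights carry a factor per library that is not stated, with heights in replicate 2 at a median of 0.749 of those in replicate 1, so heights were ranked within a mouse. The tissue label was checked on lists of marker genes. Promoter peaks in both mice were found at 6 of 6 genes of cortical excitatory neurons and at 0 of 4 liver genes. The share over protein-coding genes was 61.1%. Of 7 genes of neural progenitors and neuroblasts, 5 had a promoter peak in both mice, near that share, and Dcx and Eomes did not. Lists of other cortical cells ran from 4 of 5 astrocyte genes to 0 of 5 microglial genes, so the check is only partial. The label of a mostly postmitotic tissue cannot be measured from these data.

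Nearly every cell cycle promoter was accessible in this tissue. A promoter peak, meaning a peak within 1 kb of an annotated transcript start, was called in both mice at 40 of the 41 genes, where 61.1% of all protein-coding genes had one. The exception was Aurkb, with a peak in replicate 1. Taken singly, replicate 1 had promoter peaks at 41 members (63.4% of protein-coding genes) and replicate 2 at 40 (62.3%). Positions with a false discovery rate (FDR) of the cut rate under 0.05 lay within 1 kb of a start in both mice at 41 members, against 66.3% of protein-coding genes. In both mice, 40 members had a promoter peak above the median height of all peaks, against 54.6% of protein-coding genes. The promoter peaks lay close to an annotated start. The centre of the highest one lay at a median of -48 bp from the nearest start in replicate 1 and -69 bp in replicate 2, negative values being upstream. It was within 200 bp of a start at 39 members in replicate 1 and at 38 in replicate 2. These distances were not computed for other genes, so no difference from them is claimed.

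**Figure D1:**
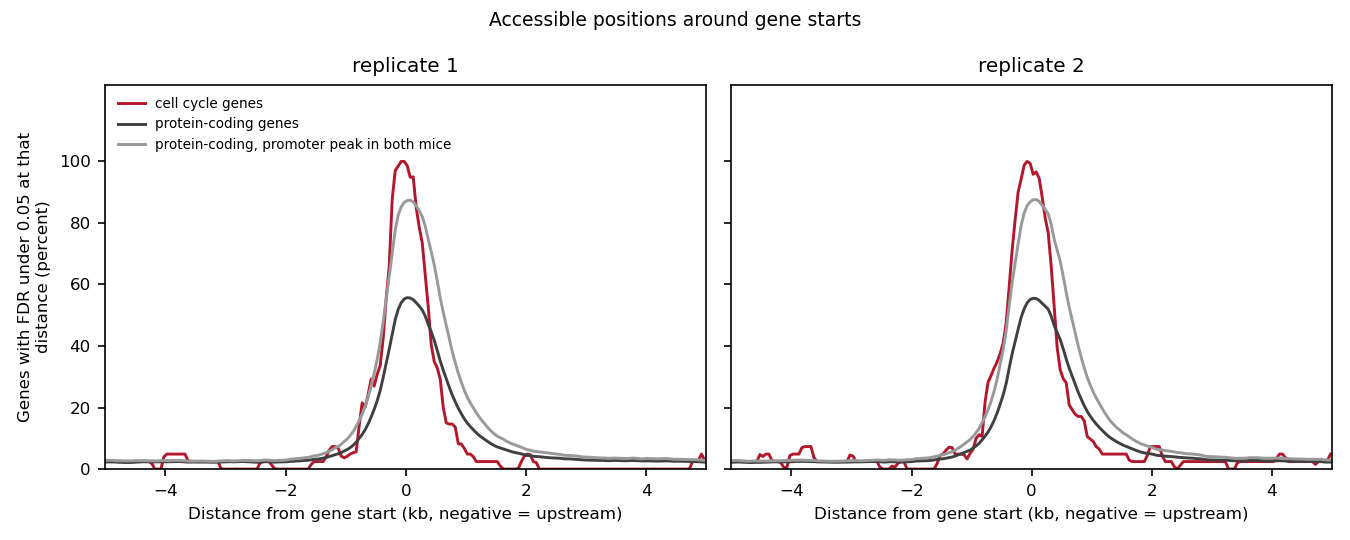
Share of genes (percent, y axis) at which positions with a false discovery rate of the cut rate under 0.05 were found, by distance from the gene start (kb, x axis, means over bins of 50 bp), for the 41 cell cycle genes, all protein-coding genes and those with a promoter peak in both mice, 1 panel per mouse. The curve of the cell cycle genes reaches 100% just upstream of the start and falls faster downstream than that of the other accessible promoters. The gene start is the outermost annotated one, whereas a promoter peak can lie near any annotated start.

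Counted from the gene start, positions under an FDR of 0.05 ended sooner downstream than at other accessible promoters. The gene start here is the outermost annotated one, while accessible promoters were chosen by a peak near any annotated start. An accessible start further inside a gene therefore lies downstream in this profile, and how far this bears on the contrast was not tested. In the 50 bp bin centred at -75 bp from the gene start, an average of 100% of the members had an FDR under 0.05 in both mice, against 85.2% and 85.6% of protein-coding genes with a promoter peak in both mice. In the bin centred at 475 bp downstream the order was reversed, with 34.9% of members in replicate 1 and 32.2% in replicate 2, against 66.4% and 67.6% of the other genes. At the mirror distance of -475 bp the members had 30.8% and 40.9% and the other genes 35.6% and 38.7%, so the members' own 2 sides differed in opposite directions in the 2 mice. The length under an FDR of 0.05 within 1 kb of all starts had a median of 849.5 bp in replicate 1 and 929.5 bp in replicate 2 over the 40 members with a peak in both mice. Over the 13401 protein-coding genes of that kind it was 1188 and 1236 bp. Genes with more annotated starts have more sequence within 1 kb of one, which was not matched between the sets. The highest promoter peak had a median width of 220 bp in replicate 1 and 260 bp in replicate 2, close to the 240 and 260 bp of protein-coding genes.

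Heights lay above the middle of all promoters and spread widely. The median height over members with a peak was 4.70 in replicate 1 and 3.40 in replicate 2, and over protein-coding genes with a peak 3.96 and 2.89. Ranked among the promoter peaks of protein-coding genes, the members had a median percentile of 59.3 in replicate 1 and 59.5 in replicate 2, with ranges from 17.9 and 15.8 up to the top. In both mice 23 members stood above the promoter median and 12 below it. The shares of protein-coding genes above or below it in both mice were not counted. Members thus stood both high and low among the promoters of other genes.

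**Figure D2:**
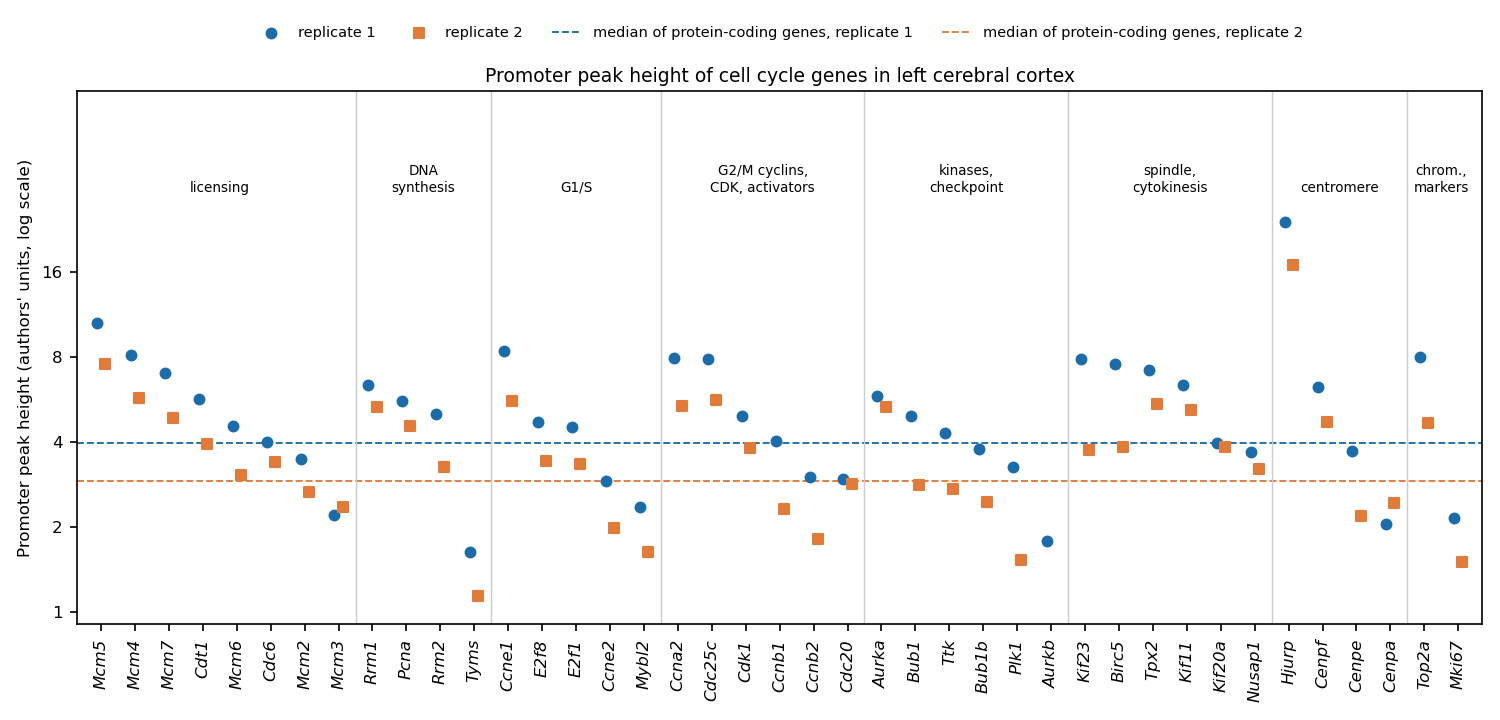
Height of the highest promoter peak (the authors' units, log axis) of each of the 41 cell cycle genes, ordered by role, in replicate 1 (circles) and replicate 2 (squares), with dashed lines at the median of protein-coding genes in each mouse. Hjurp stands far above the rest at 23.9 and 16.9, Tyms is lowest among genes with a peak in both mice at 1.62 and 1.14, and Aurkb has a point in replicate 1 alone.

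The licensing genes load the MCM2-7 helicase onto replication origins in G1. All 8 (Cdc6, Cdt1, Mcm2, Mcm3, Mcm4, Mcm5, Mcm6 and Mcm7) had a promoter peak in both mice, with a median percentile among promoter peaks of 64.1 in replicate 1 and 63.9 in replicate 2. Mcm5, a helicase subunit, was the second highest member by the mean of its percentiles in the mice, the measure by which members and other genes are ranked below, with heights of 10.5 in replicate 1 and 7.53 in replicate 2 at chr8:75109321-75109540. The subunits of the helicase ring ran from a percentile of 26.5 to 97.5 in replicate 1 and from 40.4 to 98.4 in replicate 2. Mcm4 and Mcm7 had heights of 8.12 and 7.005 in replicate 1 and 5.70 and 4.85 in replicate 2. For Mcm7 the highest peak was not at the same site in the 2 mice. The site at chr5:138171201-138171400 had 7.005 in replicate 1 and an overlapping peak of 4.22 in replicate 2. The site at chr5:138171841-138172120 had 4.85 in replicate 2 and an overlapping peak of 6.19 in replicate 1. Mcm3 was the lowest of the set, at 2.20 in replicate 1 and 2.35 in replicate 2.

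The DNA synthesis genes supply the sliding clamp and the nucleotides. Pcna, the clamp, had heights of 5.58 and 4.55 (replicate 1 first here and below), and the ribonucleotide reductase genes Rrm1 and Rrm2 had 6.37 and 5.30, and 4.998 and 3.24. Tyms, thymidylate synthase, had the lowest promoter peak of the members called in both mice, with 1.62 and 1.14 at chr5:30073341-30073740 in replicate 1, at percentiles of 17.9 and 15.8 among promoter peaks. It still stood above most peaks of the genome, at percentiles of 63.4 and 61.9 among all peaks.

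Of the G1/S cyclins and transcription factors, 5 were matched. Ccne1, cyclin E1, which activates CDK2 for entry into S phase, was the third highest member by mean percentile, with 8.39 and 5.58, although Mcm4 and Cdc25c stood above it in replicate 2. Its partner gene Ccne2 had 2.89 and 1.98. The activator E2f1 and the repressor E2f8, both E2F factors, had similar heights, 4.51 and 3.34 for E2f1 and 4.70 and 3.41 for E2f8. Mybl2, which encodes B-MYB, had the third lowest peak by mean percentile, 2.35 and 1.62 at chr2:163054441-163054660 in replicate 1.

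Among the G2/M genes, Ccna2 (cyclin A2) had 7.90 and 5.35 and Cdc25c, the phosphatase that activates CDK1, 7.86 and 5.59. Cdk1, the mitotic kinase, had 4.94 and 3.79. The B-type cyclins and the activator of the anaphase-promoting complex were lower, with 4.03 and 2.31 for Ccnb1, 2.99 and 1.81 for Ccnb2, and 2.96 and 2.84 for Cdc20. The genes that trigger mitosis therefore did not share 1 level.

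The mitotic kinases and checkpoint genes had the lowest role median, with percentiles of 50.6 in replicate 1 and 47.0 in replicate 2 among promoter peaks. Aurka, a centrosome kinase, was highest of them with 5.82 and 5.31. The checkpoint genes Bub1, Bub1b and Ttk ran from 3.76 to 4.94 in replicate 1 and from 2.43 to 2.80 in replicate 2. Plk1, polo-like kinase 1, had 3.26 and 1.52.

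The spindle and cytokinesis genes (Kif11, Kif20a, Kif23, Tpx2, Nusap1 and Birc5), which encode kinesin motors, microtubule-binding proteins and survivin, had the highest role median in replicate 1, a percentile of 81.2, and 67.0 in replicate 2. Their heights ran from 3.67 to 7.83 in replicate 1 and from 3.19 to 5.43 in replicate 2. The order of the roles in the 2 mice was not the same, since the highest role median in replicate 2 was that of DNA synthesis, at 67.2.

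The centromere genes held the widest range. Hjurp, the chaperone that deposits the centromeric histone CENP-A, had 23.9 and 16.9 at chr1:88277521-88277760 in both mice. No protein-coding gene had a higher promoter peak in either mouse, and this peak is shared with the start of Trpm8, a cold-sensing channel gene, so it cannot be credited to either start. Cenpf, a kinetochore gene, had 6.24 and 4.70, Cenpe, a kinetochore motor, 3.72 and 2.18, and Cenpa, the CENP-A gene itself, 2.04 and 2.42. Of the remaining pair, Top2a, the topoisomerase that untangles chromosomes, had 7.97 and 4.66, while Mki67, whose protein Ki-67 is the usual stain for dividing cells, had the second lowest peak by mean percentile, 2.14 and 1.49, at chr7:135716401-135716620 in replicate 1.

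Between the mice the member promoters differed about as much as other promoters did. The log2 ratio of heights, replicate 2 over replicate 1 and centred on the median of all shared regions, had a median of -0.09 over the 40 members and -0.06 over 13401 protein-coding genes. Its SD over genes was 0.288 for the members and 0.330 for protein-coding genes. It lay within 0.5 of 0 at 35 members, against 87.0% of protein-coding genes. Replicate 2 was relatively lowest at Plk1 (-0.68), Kif23 (-0.65) and Birc5 (-0.56) and relatively highest at Cenpa (0.67), Mcm3 (0.51) and Kif20a (0.37). In deposited heights, Kif23 had 7.83 and 3.74, Birc5 7.51 and 3.81, and Kif20a 3.95 and 3.83. With 1 library per animal these differences have no replicate check.

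**Figure D3:**
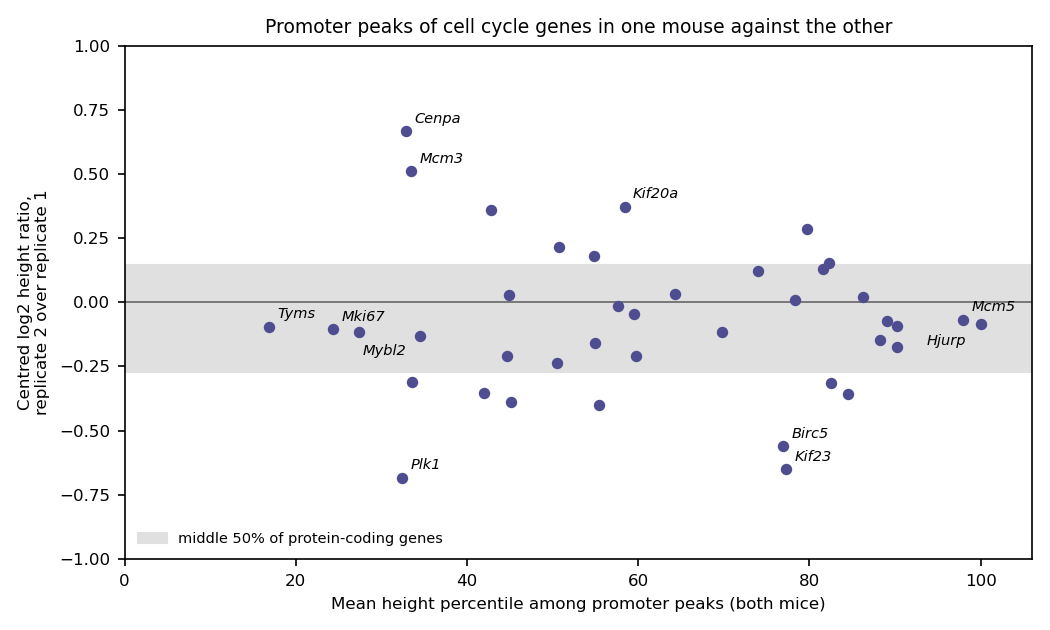
Centred log2 ratio of promoter peak heights, replicate 2 over replicate 1 (y axis), against the mean percentile of height among promoter peaks (x axis) for the 40 cell cycle genes with a promoter peak in both mice, with the middle 50% of protein-coding genes shaded. Most points lie within 0.5 of 0, and Cenpa and Plk1 lie furthest out at 0.67 and -0.68.

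Aurkb, the kinase of the chromosomal passenger complex, was at the edge of detection. In replicate 1 a peak of 158 bp with a height of 1.78 lay on the start (chr11:69045575-69045732). The shorter list of replicate 2 had none there, while the longer, more permissive list of that mouse had peaks of height 0.847 at chr11:69045501-69045760 and 0.606 at chr11:69045828-69045980. Within 1 kb of its starts 290 bp in replicate 1 and 433 bp in replicate 2 were under an FDR of 0.05, with lowest values of 7.08e-05 and 0.000491. At the looser limit the promoter of Aurkb thus had a peak in both mice.

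The neighbourhoods of the members were mostly promoters. Their windows held 104 regions called in both mice, of which 53 (51.0%) were at the member's own promoter, 23 (22.1%) at the promoter of another gene and 28 (26.9%) distal. Over all protein-coding windows the shares were 40.8%, 19.7% and 39.5%. These shares pool regions over windows, so long genes count for more. The longest window was 81075 bp among members and 4454882 bp among protein-coding genes, and lengths were not matched. A distal region was present at 19 of the 41 members, against 44.3% of protein-coding genes, a share near the background. At 14 members all regions called in both mice in the window were at the gene's own promoter. Peaks of a single mouse, such as those near Hjurp in replicate 2, are left out of this count. The share of protein-coding genes with such a window was not counted. The median member had 2 regions in its window, and so did the median protein-coding gene, whereas the median protein-coding gene with a promoter peak in both mice had 3. Per 10 kb the medians were 0.569 for members and 0.352 for protein-coding genes, whose windows had median lengths of 35307 and 37425 bp. The protein-coding shares and this median include genes without a promoter peak.

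**Figure D4:**
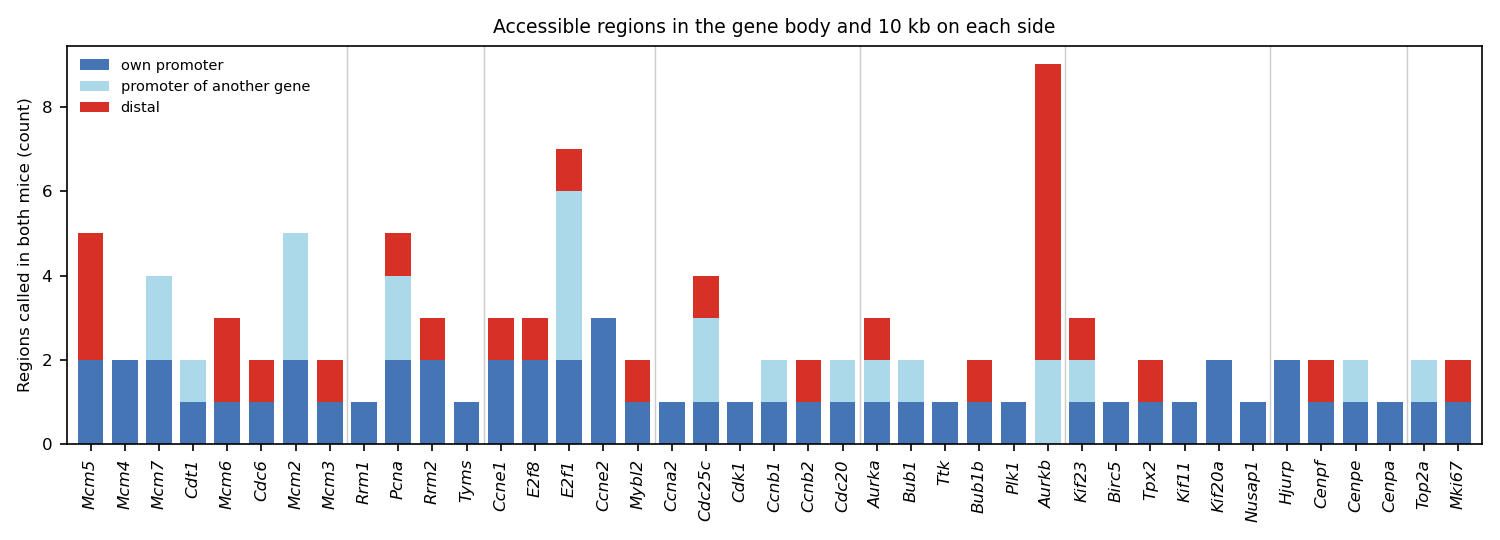
Number of regions called in both mice (y axis) in the gene body and 10 kb on each side of each cell cycle gene (x axis, ordered as in the plot of heights), split into the gene's own promoter, the promoter of another gene and distal regions. Aurkb stands out with 7 distal regions and no own promoter region, and at 14 genes all such regions are at the own promoter.

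Distal regions were most frequent at Aurkb, with 7, Mcm5, with 3, and Mcm6, with 2. Those of Aurkb were centred at -3836 to -9576 bp from its nearest start, and 1 of them lay inside Ctc1, the neighbouring gene for a telomere maintenance protein. The highest, at chr11:69041701-69041920, had heights of 9.62 in replicate 1 and 5.23 in replicate 2, above the 1.78 of the Aurkb promoter in replicate 1. The second highest by replicate 1, at chr11:69036861-69037120, had 6.45 and 2.88. The windows of neighbouring genes overlap, so these regions are near Aurkb and are not assigned to it. Distal means that no start in GENCODE M21 lay within 1 kb. Genes outside that annotation were not looked for, so such a start at these regions is not excluded. The regions of Mcm5 lay beyond its end, centred 9624, 11689 and 14643 bp downstream of its nearest annotated start, with heights from 0.596 to 2.01 in replicate 1 and from 0.774 to 0.881 in replicate 2. Those of Mcm6 were centred at -1167 bp, with 0.882 and 0.881, and at -9237 bp inside Dars, an aminoacyl-tRNA synthetase gene, with 0.784 and 0.499.

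Most peaks in the windows were met in the other mouse. The windows held 131 peaks in replicate 1 and 137 in replicate 2, and 26 (19.8%) and 32 (23.4%) of them met no peak of the other mouse, against 25.4% and 25.7% over all peaks. At 19 members no peak was unmet in either mouse, and the share of protein-coding windows of that kind was not counted. In replicate 2 the window of Hjurp held most of the unmet peaks, while in replicate 1 no single window did. The window of Hjurp had 2 peaks in replicate 1 and 21 in replicate 2, of which 19 were unmet and had heights of 0.191 to 0.477, and the length under an FDR of 0.05 there was 827 bp in replicate 1 and 9476 bp in replicate 2. The window of Cdc6 had 9 peaks in replicate 1, 7 of them unmet and some at the start of the neighbouring retinoid receptor gene Rara, and 2 in replicate 2. The window of Mki67 had 6 peaks in replicate 1, 4 of them unmet, and 2 in replicate 2.

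Footprints, short stretches inside accessible DNA where the deposited calls find fewer cuts than around them, were present in the promoter peaks of all 40 members with a peak in both mice, as in 99.2% of protein-coding genes of that kind. The median was 6 footprints in replicate 1 and 5 in replicate 2, against 6 and 6. Counts ran from 2 at Bub1 to 14 at Ccne2 and Kif20a in replicate 1 and from 3 to 14 in replicate 2, with Hjurp at 5 in replicate 1 and 14 in replicate 2. Over the whole windows there were 642 and 610 footprints.

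E2F-type and CHR-type letters differed in share between the promoters of the early and the late genes. RefSeq windows of 300 bases, from 250 before to 50 after the start, were held for 34 of the members (35 windows, with a pair at Mcm7). The others are Mcm4, Ccne2, Ccna2, Cdc25c, Aurkb, Kif20a and Tpx2. E2F-type letters were found in 10 of 16 windows of replication and G1/S genes (62.5%) and in 3 of 19 windows of G2 and mitosis genes (15.8%). They were found in 9.57% of all 32851 RefSeq windows and in 18.2% of the 12938 windows that met a region called in both mice. CHR-type letters showed the opposite order, in 3 of 16 early windows (18.8%) and 15 of 19 late windows (78.9%), against 19.2% of all windows and 12.1% of the accessible ones.

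**Figure D5:**
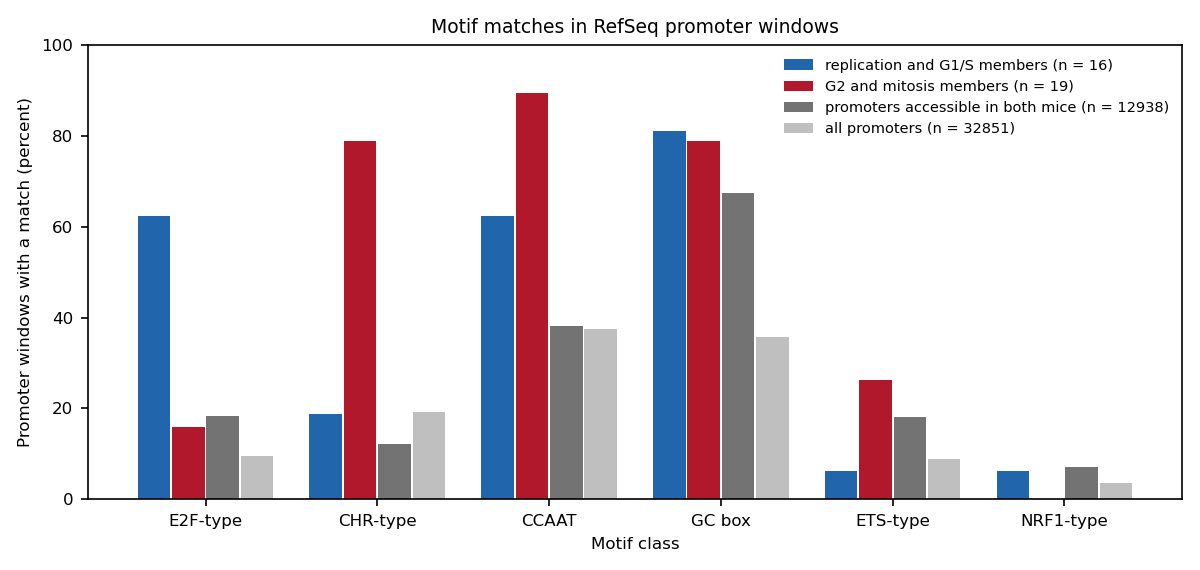
Share of RefSeq promoter windows of 300 bases with at least 1 exact match on either strand (percent, y axis) for 6 motif classes (x axis), in replication and G1/S members, G2 and mitosis members, windows accessible in both mice and all windows. E2F-type matches are found in 62.5% of the early and 15.8% of the late windows, and CHR-type matches in 18.8% and 78.9%.

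The early genes with E2F-type letters were Cdc6, Cdt1, E2f8, Mcm3, Mcm5, Mcm6, Mcm7, Rrm1 and Rrm2, and the late ones were Ccnb1, Cdk1 and Mki67. The early genes without them were Ccne1, E2f1, Mcm2, Mybl2, Pcna and Tyms. The late genes without CHR-type letters were Birc5, Ccnb1, Cenpe and Nusap1, and the early genes with them were E2f8, Mcm2 and Mcm7. In the late windows the CHR-type matches lay close to the start, with a median position of -16.5 bases and 14 of 22 matches within 50 bases of it, while CCAAT matches lay further upstream, at a median of -71 bases. CCAAT was found in 17 of 19 late windows (89.5%) and 10 of 16 early windows (62.5%), against 37.4% of all windows and 38.2% of the accessible ones. More than 1 CCAAT match was present in 11 late windows (57.9%), against 15.0% of accessible windows. The closest pair of CCAAT matches in a gene ran from 20 bases apart in Top2a to 61 in Cenpf over the 16 genes with more than 1 match, with no spacing common to all of them. CHR-type and CCAAT letters occurred together in 15 of the 19 late genes (78.9%) and in 3 of the 15 early genes, while 5.16% of accessible windows and 7.52% of all windows held both. The letters were chosen from what is known of these genes, so the contrast of early and late is a description of the list.

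Other motifs were searched in the same way. The GC box GGGCGG was found in 81.2% of early and 78.9% of late windows and in 67.4% of accessible windows. ETS-type letters (CCGGAAG) were in 1 early and 5 late windows, 17.1% of the 35 member windows, against 18.1% of accessible and 8.86% of all windows. NRF1-type letters (GCATGCG) were in 1 member window, that of Cdt1 (2.86%), against 7.04% and 3.58%. Within 200 bp at the centre of the promoter peak, CHR-type letters were found at 13 of 34 members (38.2%) in either mouse, against 5.81% of protein-coding genes with a peak in replicate 1 and 5.82% in replicate 2. In replicate 1 the shares there were 29.4% of members and 15.3% of protein-coding genes for E2F-type letters, 67.6% and 30.2% for CCAAT, and 76.5% and 59.3% for the GC box. In that mouse they were 11.8% and 15.0% for ETS-type letters and 2.94% and 6.33% for NRF1-type letters.

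Footprints fell on part of these matches. Of 25 E2F-type matches in member windows, 9 (36%) were overlapped by a footprint in both mice by at least 4 bp, against 21.8% of the matches in accessible windows. Matches that overlap each other on opposite strands are counted singly. These were at Mcm3, Mcm5, Mcm6, Mcm7, E2f8 and Cdk1. Of 25 CHR-type matches 4 (16%) were so overlapped, at Bub1, Kif11, Plk1 and Top2a, against 4.66%. Of 53 CCAAT matches it was 9 (17.0%), against 12.7%, and 4 of these stood in Top2a, whose window had 6 CCAAT matches. The others were in Mcm5, Mcm7, Ccnb2 and Cenpa. For the GC box the shares were alike, 35.8% and 35.4%. All matches in a window were counted, inside a peak or not, and their distance from the start was not matched between the sets. How far position bears on these shares was not tested. A footprint over these letters does not name the protein that left it.

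The member promoters were rich in CpG. Their windows had a median of 25 CpG dinucleotides, a GC content of 59.7% and an observed-to-expected CpG ratio of 0.935, against 22, 62.3% and 0.789 in accessible windows and 7, 52.7% and 0.384 in all windows. The lowest were Mcm3 with 8 CpG and Tyms and Rrm1 with 9, and the highest was E2f1 with 48. Of all windows with at least the 8 CpG of Mcm3, 74.8% met a region called in both mice, and of those with fewer 5.87% did. Of windows with at least the median of 25 it was 89.2%, and 33 of the 35 member windows (94.3%) did. These CpG limits were chosen after the values were seen. The share of members with a promoter peak is therefore to be read beside that of CpG-rich promoters as well as beside all genes, and how far CpG content bears on it was not tested.

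Some promoter peaks stood between neighbouring genes. At 11 of the 40 members the peak also lay within 1 kb of a start of another gene, against 34.9% of protein-coding genes with such a peak. They were Aurka with Cstf1, Cdc25c with 2010110K18Rik, E2f8 with Gm2788, Hjurp with Trpm8, Kif20a with Brd8, Mcm3 with Gm20587, Mcm4 with Prkdc, Mcm7 with Ap4m1, Nusap1 with Oip5, Pcna with AV099323 and Plk1 with Gm15489. Without peaks near another gene's start, 29 members kept a promoter peak in both mice, against 43.5% of protein-coding genes.

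Other listed genes of the cell cycle machinery were accessible too. Promoter peaks in both mice were found at 37 of 37 other replication genes, 34 of 34 other mitosis genes and 29 of 29 genes of G1 control, cell cycle inhibitors and the DREAM complex, where the share of protein-coding genes was 61.1%. The last list also included Cdk5 and Cdk5r1, the genes of a neuronal kinase and its activator. By mean percentile, the highest of the replication genes were Rpa2, a subunit of the single-strand binding protein, with 9.26 and 6.66, the polymerase gene Pold1 with 8.94 and 6.28, and Gins2, a part of the active helicase, with 8.18 and 6.42. Among the mitosis genes they were, by the same measure, Ect2, a cytokinesis regulator, with 10.9 and 6.93, the condensin gene Ncapg with 11.7 and 5.93, and the kinetochore scaffold Knl1 with 11.1 and 5.69. Among the genes of control they were Fzr1, the activator that keeps the anaphase-promoting complex on in G1 and in neurons, with 10.6 and 8.80, the inhibitor Cdkn2d with 10.0 and 7.47, and the kinase Cdk4 with 8.28 and 6.33. In a single mouse other genes of these lists stood above some of those named, such as Rfc2 with 9.26 and Trp53 with 10.2 in replicate 1 and Prc1 with 6.05 in replicate 2. Median percentiles among promoter peaks were 67.6 and 63.8 for replication, 67.7 and 64.6 for mitosis, and 54.9 and 48.2 for control, so the list of control genes stood lowest of these in both mice.

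Markers of the cells of the cortex were called in part, against the 61.1% of protein-coding genes. Beside the excitatory neuron genes, promoter peaks in both mice were found at 2 of 6 interneuron genes, 4 of 5 astrocyte genes, 2 of 5 genes of oligodendrocyte precursors, 2 of 4 oligodendrocyte genes, 0 of 5 microglial genes and 1 of 4 endothelial genes. Oligodendrocyte precursors are the main dividing cells of the young adult cortex. Of their 5 markers, Cspg4, Olig2 and Sox10 had no promoter peak in both mice, and Pdgfra and Olig1 had heights of 3.37 and 1.75, and 1.77 and 1.41. Where a marker had a peak, it stood below the middle of the promoter peaks at the median of each list given here, with median percentiles in replicate 1 and replicate 2 of 29.9 and 27.01 for excitatory neurons, 20.5 and 17.4 for astrocytes, 12.8 and 4.33 for interneurons, 18.6 and 16.8 for oligodendrocytes, 20.1 and 25.2 for their precursors, and 16.8 and 12.3 for progenitors and neuroblasts. Those of the cell cycle genes were 59.3 and 59.5. The part of dividing cells in the cell cycle peaks was not tested.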

How the data were processed

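DNase-seq of 2 libraries, 1 per mouse, was used as deposited. Per the deposited read-me text, peaks, footprints and cut-rate false discovery rates were called for each library on mm10, with aligner and callers not given in the sources used here. The authors deposited peak heights as a signal value whose scaling is not stated. The deposited footprint score is constant, so positions alone were used. The deposited rate files list p-value-like false discovery rates under 0.05. Each library has 2 peak lists, of which the shorter was used. All peaks of both lists hold a position listed in the rate files.

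Computed here (Python 3.11.15, pandas 2.3.3, numpy 2.4.6, pysam 0.24.0): promoter peaks within 1 kb of any GENCODE M21 start (55413 genes, mitochondrion left out), regions merged by an overlap of at least 1 bp, percentiles, centred log2 ratios, and exact motif matches in RefSeq windows, all of which equal the genome at the members. Other regions are distal where no start of any gene in that annotation lies within 1 kb. The counting steps were tested on simulated data. Read depth is unknown, so no counting interval is given.

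Members and lists were chosen with earlier results of these data known. All members are named. Full values go to the member without a promoter peak in both mice, the 3 highest and 3 lowest promoter peaks by mean percentile of both mice, the 3 with most distal regions and the 3 furthest on each side in height ratio; role examples, footprint extremes, CpG extremes and windows that differ between mice were chosen after their values were seen, as were the printed sequences. Other genes are named where they share a promoter peak or contain a named region. They are also named where they are among the 3 highest or without a peak in their list. Rara, Ctc1, Rfc2, Trp53, Prc1, Dars, Pdgfra, Olig1, Cdk5 and Cdk5r1 were added after their values were seen. Alternatives were another peak list, overlap, threshold, window, flank, start set, centring or searched sequence, and each mouse left out.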

Additional observations from a re-analysis of the deposited data

How the results depend on the processing

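The 40 member promoter peaks were 40 to 41 in either library alone, 41 in the longer lists, and 29 without peaks near another gene's start. The median height percentile among all peaks, 90.7 as the mean of both mice, was 90.1 to 91.8 in single libraries and 94.5 in the longer lists. The 104 regions in windows were 131 to 137 peaks in single libraries, 48 without flanks and 270 with flanks of 50 kb, since the window itself changes. The 246.5 footprints in promoter peaks (mean of the mice) were 245 to 248 in single libraries and 626 over whole windows. Over all 41 members, the median length under an FDR of 0.05 within 1 kb of starts was 837.5 bp, with the mice averaged per gene. It was 827 to 916 bp in single libraries and 684.5 bp at a limit of 0.001. The 849.5 and 929.5 bp given above leave out Aurkb. Counted inside footprints of both mice, members with E2F-type letters went from 12 to 6, with CHR-type letters from 18 to 4, with CCAAT from 26 to 5, with the GC box from 27 to 14 and with ETS-type letters from 6 to 0, by construction of the narrower search.

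The other 53 recomputed values stayed within 1.5 times the reported count or within the spread. No paired analysis was possible because the 2 libraries form 1 group. The depth of the libraries, the factor behind the heights, and the caller's threshold are unknown, and mice share 1 strain, sex and age.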
